A study of Mus musculus with 20 samples.

Results

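Wnt proteins, the receptors they bind and the secreted proteins that hold them back were followed in mouse flank tissue through a time course of Ad-VEGF-A164, an adenovirus built to make cells secrete VEGF-A164, a growth factor for blood vessels. Members were the genes whose symbol starts with Wnt, Fzd, Sfrp or Dkk and a digit, together with Notum, Wif1, Frzb, Axin2, Lef1, Lrp5 and Lrp6. These were 45 of the 18193 genes on the array that have a probe set of their own, each read from its probe set with the highest mean signal. By role they were 19 Wnt ligands, 10 Frizzled receptors, 2 Lrp co-receptors, 11 secreted inhibitors, 2 genes that respond to the pathway (Axin2 and Lef1) and Fzd10os, a long noncoding RNA that the symbol rule takes in and that encodes no receptor. Of the 45 members, 36 had a mean signal of at least 300 over the 19 arrays used and were tested, and 9 lay below it.

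Wnt proteins are lipid-modified signals that act over short distances. When one binds a Frizzled receptor together with Lrp5 or Lrp6, the complex that destroys beta-catenin is held off, beta-catenin enters the nucleus and, with Lef1 and related TCF factors, switches on target genes such as Axin2, which feeds back as a brake. Sfrp proteins, Frzb and Wif1 bind Wnts outside the cell, Dkk1 and Dkk2 bind the Lrp co-receptors, and Notum strips the lipid from Wnts. In skin the pathway is known for driving hair growth, and in the vessels of the brain and retina for forming the barrier.

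RNA was measured on 20 Affymetrix mouse genome arrays. Controls were flank tissue of day 0 (5 arrays, A to E), and tissue given Ad-VEGF-A164 was taken on day 5 (4 arrays, B to E), day 20 (5 arrays) and day 60 (5 arrays). One further array, titled day 5 A, carries the source name of the control and entered no comparison. The labels name no strain, age, sex or dose of vector, no empty vector and no later control, so effects of VEGF-A, of the adenovirus, of injecting it and of elapsed time cannot be told apart. No label says that the arrays are separate animals, so each p measures only how these samples differ among themselves, which may be technical spread, and the number of arrays limits the precision. All 3 comparisons with control share the same 5 control arrays.

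The signals are linear MAS5 values as deposited, and every change below is a difference in mean log2(signal + 100) with its standard error, a scale that understates changes of low signals. Fold values are the same changes taken out of the log, so they are ratios of signal + 100 and not of the signals themselves. A gene was called at an adjusted p under 0.05 in limma, fitted and adjusted over all 13594 tested genes. Signals of different probe sets are not compared with each other. The median signal of an array ran from 406 to 569 in controls, from 420.5 to 486 on day 5, from 452 to 465 on day 20 and from 445 to 504 on day 60. The mean ratio of the 3' to the 5' probe set of Actb, a sign of RNA length and labelling, was 7.10 in controls, 4.82 and 4.48 on day 5 and day 20, and 8.82 on day 60. Its part in the results was not tested beyond a fit that held it as a covariate. Flank tissue gave signal for markers of fibroblasts, skeletal muscle, hair follicle, fat and glandular epithelium, so each value below is a mixture of cells. Day 20 arrays B and E stand apart from the rest by low markers of hair follicle, epidermis and glandular epithelium, with the values given at the end. In such bulk tissue fewer cells of a type and less RNA per cell cannot be told apart.

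On day 5, 16 of the 36 tested members were lower than in controls and 1, Dkk2, was higher. Over all tested genes 34.3% were called on day 5, 17.5% as lower and 16.8% as higher, and the median change was -0.52 over the members against -0.07 over all genes. On day 20, 16 members were lower and 4 (Dkk2, Dkk3, Fzd8 and Notum) were higher, against 30.1% of all genes called, 14.5% lower and 15.6% higher. The median change on day 20 was -0.45 over the members and -0.06 over all genes. On day 60, Notum alone of the tested members was called higher than control and Wnt5b alone lower, against 1.13% of all genes called (0.368% higher and 0.765% lower). Arrays of the compared groups did not overlap for 15 members on day 5, 16 on day 20 and 3 on day 60, against 29.3%, 21.6% and 2.61% of all tested genes. The array titled day 5 A read inside the day 5 range, and above all controls, for Dkk2 and for summed markers of endothelium and of macrophages. With it counted as a control, 11 members were called on day 5 instead of 17. The day 5 calls that then ended were those of Wnt11, Fzd1, Fzd9, Fzd10os, Sfrp1 and Sfrp5, and on day 20 those of Wnt9a, Wnt11, Lrp6, Sfrp4 and Sfrp5 ended.

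**Figure D1:**
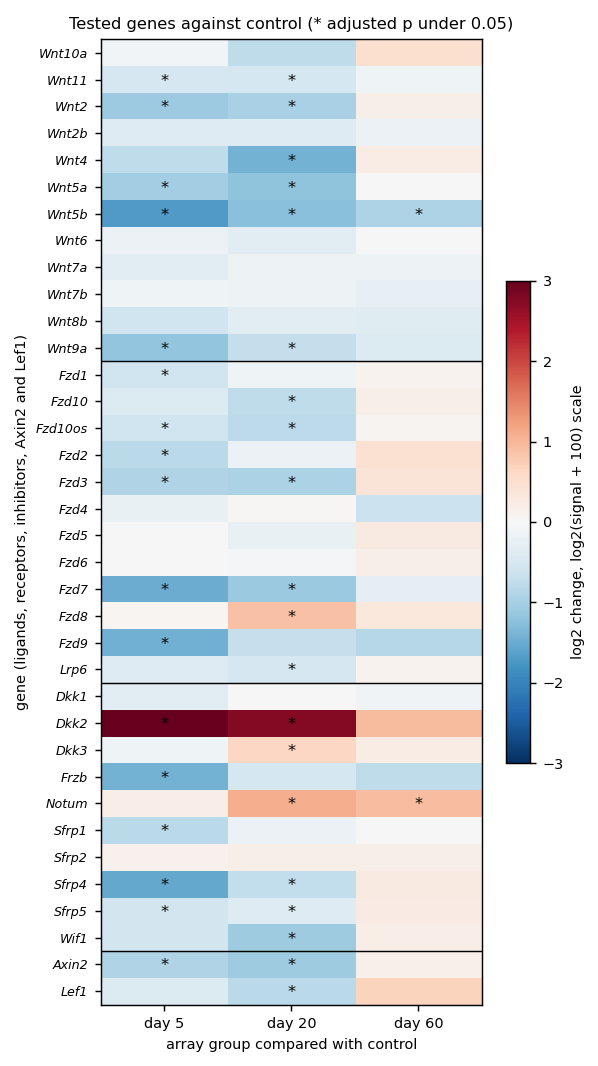
Change of each tested member against control on day 5, day 20 and day 60, as colour from blue (lower) to red (higher) of the difference in mean log2(signal + 100), with an asterisk where limma called the gene. Dkk2 is the only member called higher on day 5, 16 members are called lower on each of day 5 and day 20, and the day 60 column holds 2 called members, Notum and Wnt5b.

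The stretches of DNA just before the start sites of Dkk2 (the largest rise), Fzd7 (the fall with the smallest adjusted p) and Axin2 (the feedback gene of the pathway) are given here because the results turn on these 3 genes. They were chosen after their values were seen. Each is the 250 bases before the start in RefSeq's annotation of GRCm38.p6, all on the plus strand, at chr3:132085042-132085291 for Dkk2, chr1:59481897-59482146 for Fzd7 and chr11:108920099-108920348 for Axin2. Capitals mark CTTTGA or CTTTGT on either strand, the core that Lef1 and TCF factors bind; CTTTGT is also the core that SOX factors bind.
Dkk2: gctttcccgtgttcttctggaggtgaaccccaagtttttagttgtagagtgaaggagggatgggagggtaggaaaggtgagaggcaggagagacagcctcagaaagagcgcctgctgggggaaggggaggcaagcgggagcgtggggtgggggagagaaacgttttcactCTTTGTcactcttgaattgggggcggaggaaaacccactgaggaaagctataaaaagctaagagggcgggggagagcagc
Fzd7: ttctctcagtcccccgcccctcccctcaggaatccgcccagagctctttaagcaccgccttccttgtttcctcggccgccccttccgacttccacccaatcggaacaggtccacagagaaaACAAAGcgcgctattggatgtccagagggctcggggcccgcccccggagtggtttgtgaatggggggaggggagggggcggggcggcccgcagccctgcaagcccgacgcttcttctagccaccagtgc
Axin2: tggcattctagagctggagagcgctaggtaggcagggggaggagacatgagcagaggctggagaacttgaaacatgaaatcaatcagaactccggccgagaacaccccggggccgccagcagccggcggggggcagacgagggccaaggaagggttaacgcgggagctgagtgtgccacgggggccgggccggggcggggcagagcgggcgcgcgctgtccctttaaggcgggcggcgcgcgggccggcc
Dkk2 holds CTTTGT starting 80 bases before its start, Fzd7 holds the same core on the other strand, ACAAAG, 129 bases before its start, and the window of Axin2 holds neither core. The Dkk2 window is 55.6% G and C, that of Fzd7 65.2% and that of Axin2 69.2%. RefSeq sequence was given for 29 of the 45 members, and 7 of these (24.1%) held a core, against 27.8% of the 27025 genes with such a window. A match describes the letters of the window and is no evidence of binding, and the absence of one says only that these letters are not in it.

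Among the 12 tested Wnt ligands, 5 were lower on day 5 (Wnt2, Wnt5a, Wnt5b, Wnt9a and Wnt11) and 6 on day 20 (Wnt2, Wnt4, Wnt5a, Wnt5b, Wnt9a and Wnt11). The lower share of all tested genes was 17.5% on day 5 and 14.5% on day 20. Wnt2 is a ligand of the beta-catenin branch that is known from mesenchyme. Its control signals were 666, 555, 1045, 1143 and 791 in arrays A to E, and those of day 5 arrays B to E were 284, 275, 416 and 360.2. Day 20 gave 363, 331, 282, 369 and 524, and day 60 gave 999, 812, 948, 789.9 and 1203. Every array of day 5 and day 20 lay below every control array, while 4 of the 5 day 60 arrays lay inside the control range and day 60 E lay above it. The change of Wnt2 on the log2 scale was -1.09 ± 0.20 (adjusted p = 0.000307) on day 5, -0.97 ± 0.19 (adjusted p = 0.000623) on day 20 and 0.19 ± 0.19 (adjusted p = 0.648) on day 60, and from day 20 to day 60 it was 1.15 ± 0.19 (adjusted p = 0.000184).

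Wnt5b, which mostly acts without beta-catenin, was lower than control at every time point. Control signals of Wnt5b were 680.1, 708, 896, 1053 and 1106, against 197, 205, 261 and 154 on day 5. They were 171, 305, 281, 417 and 417 on day 20 and 486, 643, 316, 333 and 342 on day 60. No array after the vector reached the lowest control array, and day 5 had a mean below 300. Its log2 change was -1.69 ± 0.22 (adjusted p = 1.36e-05) on day 5, a signal 3.22-fold lower, -1.26 ± 0.21 (adjusted p = 0.00017) on day 20 and -0.93 ± 0.21 (adjusted p = 0.0391) on day 60. The day 60 call ended in 8 of 19 fits with 1 array left out (control A, C, D, E, day 5 C, day 60 A, D, E), with adjusted p 0.0523 to 0.116. Between day 5 and day 60 the Wnt5b change was 0.76 ± 0.22 (adjusted p = 0.018), a call that ended without day 5 E (adjusted p = 0.057) and with the Actb ratio as a covariate (adjusted p = 0.109). Averaged with its other probe set, which was too dim to be tested, it came to 0.31 (adjusted p = 0.207).

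Wnt9a is a ligand known from joints and skeleton. In controls its signals were 1094, 1142, 1163, 969.7 and 1267, and on day 5 they were 333, 404, 579.8 and 480.1. The day 20 arrays read 585, 449.9, 807, 743 and 679 and the day 60 arrays 936, 653, 1129, 756 and 704. All day 5 and day 20 arrays were below the controls, while day 60 overlapped both the controls and day 20. Wnt9a had log2 changes of -1.18 ± 0.18 (adjusted p = 5.29e-05) on day 5, -0.72 ± 0.17 (adjusted p = 0.00299) on day 20 and -0.41 ± 0.17 (adjusted p = 0.228) on day 60. Day 60 exceeded day 5 by 0.77 ± 0.18 (adjusted p = 0.00389).

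Wnt5a, a ligand best known for signalling without beta-catenin in stroma and in outgrowing tissue, varied widely among controls. Its control signals were 3081, 7464, 5771, 4170.3 and 2500.4. Those of day 5 were 2930.2, 2365, 1512 and 1538. On day 20 they were 2529, 1258, 1851, 2652 and 1117, and on day 60 they were 2766, 5195, 4244, 4717 and 4637. The upper arrays of day 5 and day 20 overlapped the lowest control array. The log2 change was -1.05 ± 0.31 (adjusted p = 0.0132) on day 5 and -1.21 ± 0.29 (adjusted p = 0.00383) on day 20, and day 60 was above day 20 by 1.20 ± 0.29 (adjusted p = 0.0056) with no overlap of the arrays. Of its 3 other tested probe sets, 1 gave log2 changes of -0.76 (adjusted p = 0.0231) on day 5 and -1.08 (adjusted p = 0.00162) on day 20, while the remaining ones gave -0.26 (adjusted p = 0.507) and -0.70 (adjusted p = 0.0653) on day 20. With the mean of all its probe sets the day 5 call ended (adjusted p = 0.0597). The call of day 60 against day 5, 1.04 ± 0.31 (adjusted p = 0.0195), ended in 2 of 19 fits with 1 array left out (day 5 D, E), with adjusted p 0.0622 to 0.0629.

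Wnt4, a ligand expressed in epithelium and needed in kidney and mammary gland, was called lower on day 20. Its control arrays read 2345, 3061, 1583, 1856 and 1832 and its day 5 arrays 1080.2, 1209, 1189.7 and 1271. On day 20 the signals were 1182, 98.1, 1031, 940.4 and 1070.3, and on day 60 they were 1717, 2989.9, 2850.1, 2901 and 2038. All arrays of day 5 and day 20 were below every control array, and day 20 B stood far below the other day 20 arrays. For Wnt4 the log2 change was -1.43 ± 0.37 (adjusted p = 0.00637) on day 20, and -0.76 ± 0.39 (adjusted p = 0.14) on day 5 did not pass. A separate probe set of Wnt4 gave -0.998 (adjusted p = 0.0346) on day 5 and -1.45 (adjusted p = 0.00272) on day 20. Day 60 was higher than day 20 by 1.65 ± 0.37 (adjusted p = 0.00304).

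Wnt11, a ligand of cell polarity and movement, was lower on day 5 and day 20. Its signals were 817, 1145, 1181, 986 and 735 in controls and 504, 638, 939 and 584 on day 5. They were 694, 694, 686, 663 and 441 on day 20 and 968, 660.1, 914, 919 and 945 on day 60. Day 5 D lay inside the control range, and every day 20 array lay below it, with day 20 E far under the other arrays of that day. The log2 change was -0.50 ± 0.18 (adjusted p = 0.0405) on day 5 and -0.54 ± 0.17 (adjusted p = 0.0223) on day 20. On day 5 the call of Wnt11 ended in 6 of 19 fits with 1 array left out (control B, C, D, day 5 B, C, E), with adjusted p 0.0695 to 0.138, and on day 20 it ended in 3 of 19 fits with 1 array left out (control B, C, day 20 E), with adjusted p 0.0503 to 0.066. Wnt10a, whose loss affects hair and teeth, was called only between day 20 and day 60, at 1.24 ± 0.43 (adjusted p = 0.0431). Its signals ranged from 617 to 2564 in controls, from 667 to 1256 on day 5, from 88.4 to 1426 on day 20 and from 1242 to 1904 on day 60, and day 20 overlapped day 60. That call ended in 13 of 19 fits with 1 array left out (control A, C, D, day 5 D, E, day 20 B, D, E, day 60 A, B, C, D, E), with adjusted p 0.0505 to 0.123.

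**Figure D2:**
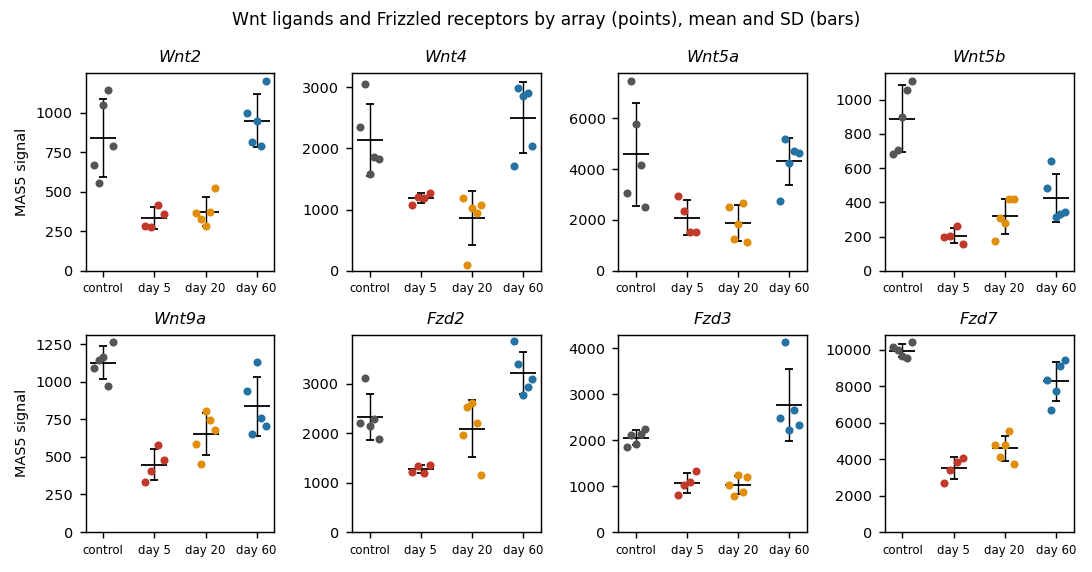
MAS5 signal per array (linear axes from 0, a scale of its own in each panel) of 5 ligands and 3 Frizzled receptors that had calls, by group; each dot is 1 array, the wide bar is the group mean and the whiskers are the SD. Fzd7 lies between 2676 and 4055 on day 5 and between 9542 and 10451 in controls, and Wnt5b is below its controls at every time point.

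Of the 10 Frizzled receptors, all tested, 5 were lower on day 5 (Fzd1, Fzd2, Fzd3, Fzd7 and Fzd9) and on day 20 Fzd3, Fzd7 and Fzd10 were lower and Fzd8 higher. The share of all tested genes called in either direction was 34.3% on day 5 and 30.1% on day 20. Fzd7, a receptor of both Wnt branches that is known from stem cells, was lower on both days. Control arrays A to E gave signals of 10149, 10004, 9662, 9542 and 10451. The day 5 arrays gave 2676, 3407, 3858 and 4055. Signals were 4786, 4097, 4785, 5556 and 3712 on day 20 and 8341, 6713, 7723, 9089 and 9454 on day 60. The groups stood apart: every day 5 and day 20 array was below every day 60 array, and every day 60 array was below every control array. The mean signal of Fzd7 was 9962 ± 368 (SD, n = 5) in controls and 3499 ± 612 (SD, n = 4) on day 5, a log2 change of -1.50 ± 0.14 (adjusted p = 2.19e-07) or 2.83-fold. For day 20 the log2 change came to -1.12 ± 0.13 (adjusted p = 3.26e-06), and on day 60 it was -0.28, which did not pass (adjusted p = 0.309, 95% interval -0.55 to -0.004). Day 60 exceeded day 20 by 0.84 ± 0.13 (adjusted p = 0.000126) and day 5 by 1.22 ± 0.14 (adjusted p = 4.25e-06). These 4 calls held in every alternative that was run, though their size varied. Across the alternatives the Fzd7 change ran from -1.574 to -0.825 on day 5 and from -1.186 to -0.646 on day 20.

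Fzd3, a receptor of polarity and axon guidance that is also found in hair follicles, was lower on day 5 and day 20 at its brightest probe set. Its signals were 1860.2, 2113, 1912, 2128 and 2246 in controls and 811, 1026, 1093 and 1323 on day 5. On day 20 they were 1028, 791, 1246, 874 and 1189.8, and on day 60 they were 2491, 4129, 2221, 2646 and 2322. Arrays of day 5 and day 20 lay below all others, and day 60 B was far above the rest of its group. On the log2 scale Fzd3 changed by -0.90 ± 0.17 (adjusted p = 0.000547) on day 5, -0.95 ± 0.16 (adjusted p = 0.000234) on day 20 and 1.33 ± 0.16 (adjusted p = 1.02e-05) from day 20 to day 60. Its 2 other tested probe sets did not pass on day 5, with -0.53 (adjusted p = 0.0663) and -0.24 (adjusted p = 0.25) on day 5. With the mean of all its probe sets the calls on day 5 (adjusted p = 0.135), of day 60 against day 20 (adjusted p = 0.0785) and of day 60 against day 5 (adjusted p = 0.238) ended.

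Fzd2, a receptor for Wnt5a among others, was lower than control on day 5. Its controls read 2207, 3122, 2145, 2287 and 1874 and its day 5 arrays 1221, 1330.2, 1196 and 1361. The arrays read 1972, 2518, 2615, 2196 and 1154 on day 20 and 3858, 3392, 2778, 2924 and 3099.9 on day 60. The day 5 arrays lay together below all controls, and the day 60 arrays lay above all of day 20. The log2 change of Fzd2 was -0.80 ± 0.19 (adjusted p = 0.00286) on day 5, -0.18 ± 0.18 (adjusted p = 0.481) on day 20 and 1.26 ± 0.19 (adjusted p = 8.60e-05) from day 5 to day 60. Its other probe sets did not follow: they gave 0.42 (adjusted p = 0.304) and 0.13 (adjusted p = 0.628) on day 5, and from day 5 to day 60 the first of them moved the other way, by -0.94 (adjusted p = 0.0298). With the mean of all probe sets the day 5 call ended (adjusted p = 0.703), as did that of day 60 against day 5 (adjusted p = 0.813), and the change from day 20 to day 60, 0.64 ± 0.18 (adjusted p = 0.0137), turned to -0.027.

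Fzd1 and Fzd9 were lower on day 5 with less support. Fzd1 signals ranged from 5289.9 to 13308 in controls and from 5011 to 5872 on day 5, which overlap, with a log2 change of -0.59 ± 0.21 (adjusted p = 0.0379). This call ended in 7 of 19 fits with 1 array left out (control B, C, D, day 5 B, C, D, E), with adjusted p 0.0517 to 0.0952, and with the mean of its probe sets (adjusted p = 0.0579). Fzd1 was higher on day 60 than on day 5 by 0.69 ± 0.21 (adjusted p = 0.0241), a call that ended in 3 of 19 fits with 1 array left out (day 5 B, D, day 60 E), with adjusted p 0.0549 to 0.0588, and with the mean of its probe sets it came to 0.31 (adjusted p = 0.256). Fzd9 read 1219.5, 536, 861, 822 and 1166 in controls and 77.7, 289, 492 and 329 on day 5. Its arrays did not overlap there, but they scattered from 60.6 to 1199.7 on day 60. The Fzd9 change on day 5 was -1.44 ± 0.52 (adjusted p = 0.0376) and ended in 7 of 19 fits with 1 array left out (control A, C, D, E, day 5 B, C, E), with adjusted p 0.0553 to 0.141, and with the Actb ratio as a covariate (adjusted p = 0.0892).

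Fzd10 was lower on day 20. Its signals were 1025, 1655, 1325, 1511 and 1079.7 in controls and 910.2, 419.8, 883, 785 and 753 on day 20. On day 5 they were 634, 963, 1270.3 and 1039, and its day 60 signals were 995, 1593, 1542, 1444 and 1941. No day 20 array reached the controls, and day 20 B was the lowest of all arrays. Fzd10 had a log2 change of -0.76 ± 0.21 (adjusted p = 0.0102) on day 20 and 0.92 ± 0.21 (adjusted p = 0.00335) from day 20 to day 60, and -0.41 ± 0.22 (adjusted p = 0.161) on day 5 did not pass. The noncoding Fzd10os was lower on both days, at -0.59 ± 0.15 (adjusted p = 0.00379) on day 5 and -0.79 ± 0.14 (adjusted p = 0.000242) on day 20, and higher on day 60 than on day 20 by 0.87 ± 0.14 (adjusted p = 0.000147). Its signals ranged from 1403 to 1967 in controls, from 962 to 1091 on day 5, from 656 to 1155 on day 20 and from 1586 to 1841 on day 60, so neither early day overlapped the controls or day 60. Its other tested probe set did not pass, with -0.36 (adjusted p = 0.231) on day 5, -0.30 (adjusted p = 0.308) on day 20 and 0.01 (adjusted p = 0.973) from day 20 to day 60, and with the mean of both the call of day 60 against day 5 ended (adjusted p = 0.083).

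Fzd8, which binds Wnts with high affinity, was the member of the Frizzled family that rose. It read 362, 478, 358, 160.0 and 295 in controls and 244, 378, 346 and 391.7 on day 5. On day 20 it read 579, 897, 599, 843 and 506, and its day 60 signals were 447, 464, 341, 453 and 380.1. Every day 20 array was above every array of the other groups. The log2 change of Fzd8 on day 20 was 0.89 ± 0.20 (adjusted p = 0.00246), or 1.85-fold, and its other tested probe set gave 1.16 (adjusted p = 0.00212). Day 20 exceeded day 5 by 0.82 ± 0.21 (adjusted p = 0.0284), a call that ended in 5 of 19 fits with 1 array left out (day 5 B, C, D, day 20 B, D), with adjusted p 0.0528 to 0.0938. Day 60 differed from day 20 by -0.58 ± 0.20 (adjusted p = 0.0437), a call that ended in 11 of 19 fits with 1 array left out (control E, day 5 C, D, day 20 B, C, D, day 60 A, B, C, D, E), with adjusted p 0.0505 to 0.124.

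Fzd4, the receptor for Norrin in retinal vessels, was called only as lower on day 60 than on day 20, at -0.67 ± 0.23 (adjusted p = 0.042). Its signals were 6476, 6042, 4171, 6026 and 8897 on day 20 and 5611, 3169, 3409.7, 3609 and 3791 on day 60. The highest day 60 array lay inside the day 20 range, and the call ended in 9 of 19 fits with 1 array left out (day 5 C, day 20 A, B, D, E, day 60 B, C, D, E), with adjusted p 0.0504 to 0.113. The other tested probe set of Fzd4 was also lower on day 60, with log2 changes of -0.72 (adjusted p = 0.00373) against day 20 and -0.66 (adjusted p = 0.00965) against day 5. Against control its log2 change was -0.22 ± 0.24 (adjusted p = 0.518) on day 5 and 0.03 ± 0.23 (adjusted p = 0.949) on day 20, which did not pass, while markers of endothelium rose on both days. On day 60 the change of Fzd4 against control was -0.64 ± 0.23 (adjusted p = 0.16), which did not pass either.

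Lrp6, the co-receptor that Dkk proteins block, was lower on day 20. Its controls read 5447, 3436, 4889, 5391 and 6140.0 and its day 20 arrays 3277, 4051, 3169, 3674 and 3314. On day 5 it read 2974, 3658, 4436 and 4225 and its day 60 signals were 5721, 5166, 4793, 5156 and 6096. Control B lay among the day 20 arrays, and the other control arrays lay above them. For Lrp6 the log2 change was -0.50 ± 0.14 (adjusted p = 0.0128) on day 20 and 0.61 ± 0.14 (adjusted p = 0.00465) from day 20 to day 60. Held beside the Actb ratio, both calls ended (adjusted p = 0.0639 and 0.0516). From day 5 to day 60 Lrp6 rose by 0.50 ± 0.15 (adjusted p = 0.0233), a call that ended in 3 of 19 fits with 1 array left out (day 5 B, C, day 60 E), with adjusted p 0.0502 to 0.0992, and also with the Actb ratio (0.122). When the other Lrp6 probe set, too dim to be tested, was averaged in, this change came to 0.20 (adjusted p = 0.352) and that of day 20 to -0.33 (adjusted p = 0.087), neither called.

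Secreted inhibitors moved in both directions. Of the 10 that were tested, 4 were lower on day 5 (Frzb, Sfrp1, Sfrp4 and Sfrp5) and Dkk2 was higher, and on day 20 Sfrp4, Sfrp5 and Wif1 were lower and Dkk2, Dkk3 and Notum higher. Among all tested genes 34.3% were called on day 5 and 30.1% on day 20. Dkk2, which binds Lrp5 and Lrp6, rose more than any other member. Its control signals were 251, 558, 402, 287 and 141, around the minimum for testing. The day 5 arrays read 3536, 3370.0, 2275 and 3573. Dkk2 read 3102, 2704, 1852, 2703 and 2908 on day 20 and 709, 895, 783, 344 and 831 on day 60. The lowest array of day 5 or day 20 was above the highest array of control or day 60, while day 60 overlapped the controls. The mean signal of Dkk2 was 328 ± 159 (SD, n = 5) in controls, 3189 ± 615 (SD, n = 4) on day 5, 2654 ± 478 (SD, n = 5) on day 20 and 713 ± 217 (SD, n = 5) on day 60. The day 5 change was 3.002 ± 0.26 (adjusted p = 1.31e-07), or 8.01-fold, and on day 20 it was 2.75 ± 0.25 (adjusted p = 1.89e-07), or 6.72-fold. On day 60 it was 0.95, which missed the threshold (adjusted p = 0.0683, 95% interval 0.43 to 1.47). Day 60 was lower than day 20 by 3.47-fold, a log2 change of -1.80 ± 0.25 (adjusted p = 3.70e-05). The array titled day 5 A read 3184, inside the day 5 range.

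Dkk3, a divergent Dkk family member, read 772, 817, 359, 552 and 732 in controls and 651, 1559, 1314, 905 and 833 on day 20. These overlapped, and the log2 change was 0.61 ± 0.23 (adjusted p = 0.0499). The call ended in 14 of 19 fits with 1 array left out (control A, C, D, E, day 5 B, C, D, E, day 20 B, C, D, day 60 C, D, E), with adjusted p 0.0509 to 0.153, and also with the Actb ratio as a covariate (adjusted p = 0.1). Its other probe set rose by 1.20 (adjusted p = 0.00148) on day 20. Dkk1, a strong blocker of Lrp co-receptors, was tested at a mean of 325 and was called in no comparison.

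Notum, the enzyme that removes the Wnt lipid, was called higher on day 20 and day 60 and not on day 5. It read 439, 509.5, 519, 637 and 200.1 in controls and 386, 536, 590.2 and 589 on day 5. On day 20 it read 1290.5, 1161, 784, 1047 and 968, and its day 60 signals were 837, 1212, 1139.7, 638 and 926. Day 5 lay inside the control range, and every day 20 and day 60 array was above every control array. The log2 change was 0.20 ± 0.23 (adjusted p = 0.527) on day 5, 1.08 ± 0.22 (adjusted p = 0.000891) on day 20 and 0.94 ± 0.22 (adjusted p = 0.0416) on day 60. The day 60 call ended in 14 of 19 fits with 1 array left out (control A, C, E, day 5 C, D, E, day 20 A, B, D, E, day 60 A, B, C, E), with adjusted p 0.0506 to 0.107. Day 20 was above day 5 by 0.88 ± 0.23 (adjusted p = 0.0305), a call that ended in 7 of 19 fits with 1 array left out (day 5 B, C, D, E, day 20 A, B, D), with adjusted p 0.052 to 0.0962, and day 60 above day 5 by 0.73 ± 0.23 (adjusted p = 0.0252), which ended in 4 of 19 fits with 1 array left out (day 5 B, C, day 60 B, C), with adjusted p 0.0506 to 0.0925. The array titled day 5 A read 1287 for Notum, above every other day 5 array, and with it counted as day 5 the calls against day 5 ended (adjusted p = 0.137 and 0.152).

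Among the Wnt-binding Sfrp group, Sfrp4 had the largest change on day 5. Its controls read 3067, 3089.6, 4497, 4523 and 3773 and its day 5 arrays 917, 1104, 1594 and 1379. On day 20 it read 1996, 2031, 2244, 2772 and 1958, and its day 60 signals were 6424, 3303, 3253, 4699 and 5679. Day 5 lay below day 20, and day 20 below both the controls and day 60, without overlap. Sfrp4 had log2 changes of -1.54 ± 0.21 (adjusted p = 1.49e-05) on day 5, or 2.90-fold lower, -0.75 ± 0.19 (adjusted p = 0.00637) on day 20 and 0.26 ± 0.19 (adjusted p = 0.522) on day 60. Day 20 exceeded day 5 by 0.79 ± 0.21 (adjusted p = 0.0298), a call that ended in 4 of 19 fits with 1 array left out (day 5 B, C, day 20 C, D), with adjusted p 0.0509 to 0.0999, and day 60 exceeded day 20 by 1.01 ± 0.19 (adjusted p = 0.000879).

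Frzb, a cartilage and stromal relative of the Sfrp proteins, was lower on day 5. Its signals were 2632, 1942, 1704, 2478 and 2106 in controls and 668, 745, 765 and 800.1 on day 5. They were 1930.1, 1088, 1249, 1864 and 1312 on day 20 and 1502, 575, 1959.9, 1134 and 1435 on day 60. The day 5 arrays lay close together and below all controls and all day 20 arrays. For Frzb the log2 change was -1.41 ± 0.24 (adjusted p = 0.00019) on day 5, and -0.53 ± 0.23 (adjusted p = 0.0867) on day 20 and -0.75 ± 0.23 (adjusted p = 0.105) on day 60 did not pass. Day 20 exceeded day 5 by 0.88 ± 0.24 (adjusted p = 0.0402), which ended in 7 of 19 fits with 1 array left out (day 5 B, C, D, E, day 20 A, D, E), with adjusted p 0.0578 to 0.104, and with the mean of its probe sets it came to 0.42 (adjusted p = 0.183).

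Sfrp1 read 2731, 3079, 3997, 3342 and 3145 in controls and 1301, 1762, 2296 and 2014 on day 5. Those groups did not overlap, and the log2 change was -0.81 ± 0.20 (adjusted p = 0.0043). Its 3 other tested probe sets gave -0.91, -1.04 and -0.68 on day 5, all with an adjusted p under 0.05. On day 20 its change was -0.19 ± 0.19 (adjusted p = 0.489), and from day 5 to day 60 it was 0.81 ± 0.20 (adjusted p = 0.00613). Sfrp5, known from fat tissue, read 1055, 874, 1369, 1165 and 1211 in controls, 646, 758, 656 and 921 on day 5 and 982, 895, 747, 682 and 917 on day 20. Control B overlapped both of those days. Sfrp5 had log2 changes of -0.54 ± 0.15 (adjusted p = 0.00831) on day 5 and -0.38 ± 0.14 (adjusted p = 0.0456) on day 20, and the day 20 call ended in 12 of 19 fits with 1 array left out (control A, C, D, E, day 5 C, D, day 20 B, C, D, E, day 60 D, E), with adjusted p 0.0503 to 0.117. Day 60 was above day 20 by 0.63 ± 0.14 (adjusted p = 0.00321) with no overlap. With the mean of both Sfrp5 probe sets, of which the other one was too dim to be tested, the day 20 change came to -0.12 (adjusted p = 0.602), that of day 60 against day 20 turned to -0.011 (adjusted p = 0.973) and that of day 60 against day 5 came to 0.32 (adjusted p = 0.184). Sfrp2, a stromal family member, had no call in any comparison, and its signal reached 11785 in day 60 E against 2231 to 3662 in the other day 60 arrays.

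Wif1, which binds Wnts and is made in follicles and cartilage, was lower on day 20. Its controls read 1511, 2166, 1769, 1518 and 1163 and its day 20 arrays 1359, 352, 927, 723 and 519.5. Signals were 1135, 1046, 1122 and 937 on day 5 and 1767, 2026, 1331, 1773 and 2544 on day 60. Day 20 A lay inside the control range, while all day 5 arrays lay below it. The log2 change of Wif1 was -1.07 ± 0.24 (adjusted p = 0.00259) on day 20 and 1.27 ± 0.24 (adjusted p = 0.000901) from day 20 to day 60. On day 5 it was -0.55 ± 0.26 (adjusted p = 0.107), which did not pass. From day 5 to day 60 it rose by 0.75 ± 0.26 (adjusted p = 0.0396), a call that ended in 8 of 19 fits with 1 array left out (day 5 B, C, D, E, day 60 A, B, D, E), with adjusted p 0.056 to 0.0919.

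**Figure D3:**
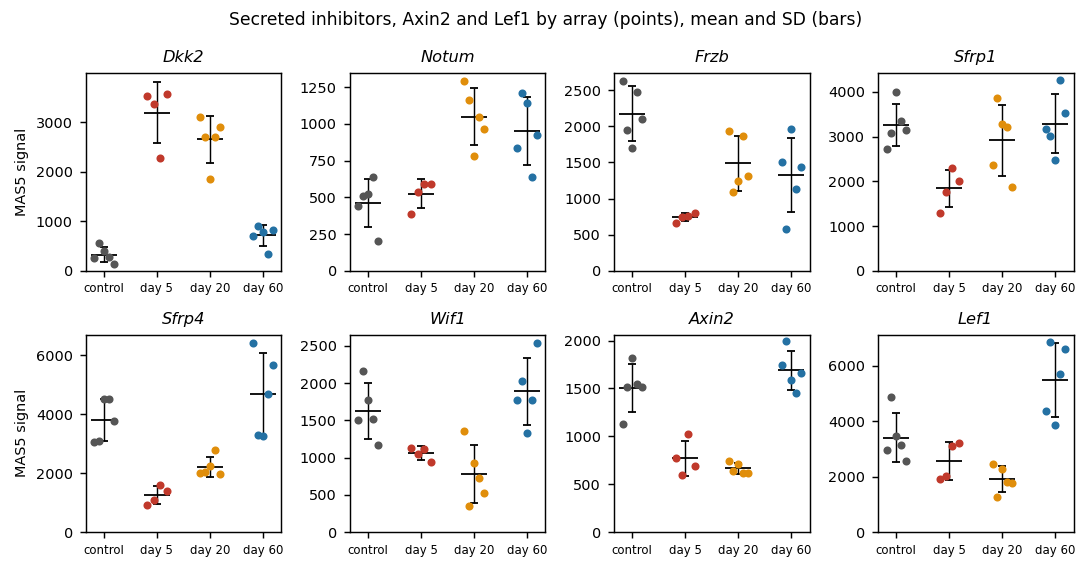
MAS5 signal per array (linear axes from 0, a scale of its own in each panel) of 6 secreted inhibitors and of Axin2 and Lef1, by group; each dot is 1 array, the wide bar is the group mean and the whiskers are the SD. Dkk2 lies between 1852 and 3573 on day 5 and day 20 and at 895 or less in controls and on day 60, while Axin2 is below its controls on day 5 and day 20.

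Axin2, the feedback scaffold often used as a readout of beta-catenin signalling, was lower on both early days. Its controls read 1129, 1514, 1823, 1551 and 1515, and its day 5 arrays read 776, 592, 1024 and 686. On day 20 it read 742, 640.1, 709.7, 619 and 616, with little spread, and its day 60 signals were 1739.9, 1993, 1587, 1458 and 1665. No day 5 or day 20 array reached the controls or day 60. The mean signal of Axin2 was 1506 ± 247 (SD, n = 5) in controls and 665 ± 57.3 (SD, n = 5) on day 20. Its log2 change was -0.89 ± 0.15 (adjusted p = 0.000145) on day 5, -1.06 ± 0.14 (adjusted p = 1.45e-05) on day 20 and 0.16 ± 0.14 (adjusted p = 0.595) on day 60. Day 60 exceeded day 20 by 1.22 ± 0.14 (adjusted p = 5.02e-06), or 2.33-fold. These calls against control and between days held in every alternative that was run, though their size varied. Across the alternatives the Axin2 change ran from -1.165 to -0.681 on day 20 and from 0.61 to 1.338 for day 60 against day 20.

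Lef1, the DNA-binding partner of beta-catenin that is abundant in hair follicles, was lower on day 20. It read 2972, 4862, 3475, 3137 and 2551 in controls and 1922, 2011, 3106 and 3203 on day 5. On day 20 it read 2447, 1251, 2285, 1807 and 1784, and its day 60 signals were 4345, 6837, 3849, 5694 and 6600.1. The day 20 arrays lay below all controls, and the day 60 arrays lay above all arrays of day 5 and day 20. The log2 change of Lef1 was -0.80 ± 0.21 (adjusted p = 0.00824) on day 20 and 1.47 ± 0.21 (adjusted p = 6.34e-05) from day 20 to day 60, while -0.40 ± 0.23 (adjusted p = 0.185) on day 5 did not pass. Against control the day 60 change of Lef1 was 0.67 ± 0.21 (adjusted p = 0.12), which did not pass. The second Lef1 probe set had a mean of 88.6 and was not tested. With the mean of both probe sets the day 20 change of Lef1 came to -0.47 (adjusted p = 0.106) and that of day 60 against day 5 to 0.61 (adjusted p = 0.0588), and neither was called.

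Day 60 differed from day 20 for 18 tested members, 15 of them higher and 3 (Dkk2, Fzd4 and Fzd8) lower, against 22.1% of all genes called, 11% higher and 11.2% lower. Arrays of day 60 and day 20 did not overlap for 15 members, against 15.3% of all genes. The largest rises were of Wnt4 (1.65), Lef1 (1.47), Fzd3 (1.33) and Wif1 (1.27), all as log2 changes, and the largest fall was that of Dkk2 (-1.80). Wnt9a, Wnt11 and Wnt5b, all lower than control on day 20, had log2 changes of 0.31, 0.42 and 0.33 from day 20 to day 60, which did not pass (adjusted p = 0.201, 0.0864 and 0.292). Against day 5, 17 members were higher on day 60 and Dkk2 was lower, against 24.4% of all genes called (12.2% higher and 12.2% lower), and the arrays of 18 members did not overlap, against 20.1% of all genes. Day 20 differed from day 5 for 4 members, Frzb, Fzd8, Notum and Sfrp4, all higher, against 5.3% of all genes called, 3.05% higher and 2.25% lower.

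**Figure D4:**
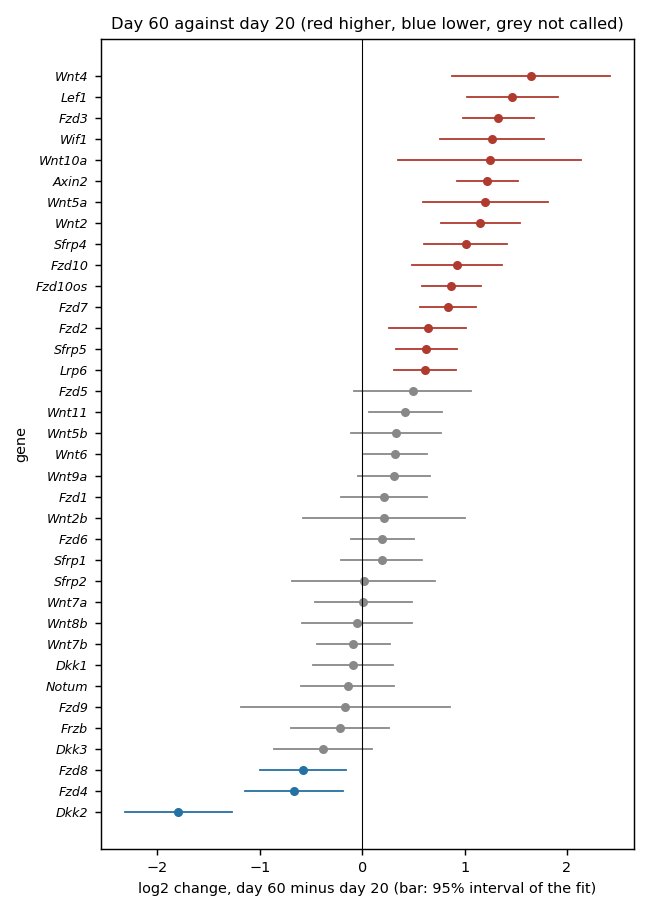
Difference in mean log2(signal + 100) of day 60 from day 20 for each tested member, ordered by size; points are the estimates, lines are 95% intervals from limma, and colour marks members called higher (red), called lower (blue) or not called (grey). The 15 called rises run from 0.61 (Lrp6) to 1.65 (Wnt4), and Dkk2 stands alone at the low end at -1.80.

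The 9 tested members without a call in any comparison were Wnt2b, Wnt6, Wnt7a, Wnt7b, Wnt8b, Fzd5, Fzd6, Sfrp2 and Dkk1. The smallest adjusted p among them was that of Wnt6 on day 20, -0.34 ± 0.15 (adjusted p = 0.0839), whose arrays did not overlap the controls. Missing the threshold does not show that these genes did not differ. Wnt7a and Wnt7b, ligands of skin epithelium and, for Wnt7b, of the brain vessel barrier, had log2 changes of -0.33 and -0.12 on day 5 and -0.16 and -0.15 on day 20.

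Members under a mean signal of 300 were Wnt1 (165), Wnt3 (95.4), Wnt3a (279), Wnt8a (163.98), Wnt9b (269), Wnt10b (63.2), Wnt16 (85.9), Dkk4 (129) and Lrp5 (185), each given as its mean over the 19 arrays. They were not tested. Just inside the minimum were Dkk1 (325), Wnt8b (328) and Wnt2b (329), and just outside it Wnt3a. Only Wnt3a and Wnt9b of the untested members had a group mean of 300 or more, Wnt3a in controls and Wnt9b in controls and on day 60. Wnt9b, a ligand of epithelium, had a mean signal of 377 ± 154 (SD, n = 5) in controls, 142 ± 121 (SD, n = 5) on day 20 and 359.8 ± 101 (SD, n = 5) on day 60, and Wnt3a, a ligand of the beta-catenin branch, 419 ± 104 (SD, n = 5) in controls and 160.2 ± 73.6 (SD, n = 5) on day 60. Of the 36 tested members, 31 had a mean of at least 300 in all 4 groups, and Dkk1, Fzd9, Wnt2b, Wnt5b and Wnt8b did not.

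Other genes of the pathway were taken from 7 lists with 75 genes, of which 63 were tested. On day 5, 6 of these rose and 23 fell, and on day 20, 12 rose and 17 fell. Over all tested genes 16.8% rose and 17.5% fell on day 5, and 15.6% rose and 14.5% fell on day 20. On day 60 Tspan12 alone was called, and from day 20 to day 60, 17 rose and 10 fell. Of 10 genes for Wnt secretion and alternative receptors, 2 rose and 3 fell on day 5, led by Adgra2 (0.91 ± 0.26), a co-receptor for Wnt7 proteins in vessels, and by Reck (-0.99 ± 0.28), its partner. On day 20, 3 of the 10 rose and Ndp fell. Tspan12, which enhances signalling from Norrin through Fzd4, had the largest rise, 1.28 ± 0.24 (adjusted p = 0.000436), and Ndp, the gene of Norrin, had a log2 change of -0.63 ± 0.19 (adjusted p = 0.0189). Tspan12 was then lower than control on day 60, at -1.20 ± 0.24 (adjusted p = 0.0204).

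Of 7 tested R-spondin, Lgr and ligase genes, which tune how much Frizzled stays on the cell, 5 fell on day 5 and 4 on day 20. Among all tested genes the lower share was 17.5% on day 5 and 14.5% on day 20. The largest fall was that of Lgr6, a receptor for R-spondins marking follicle stem cells, with -0.99 ± 0.16 (adjusted p = 9.90e-05) on day 5 and -0.86 ± 0.15 (adjusted p = 0.000258) on day 20. A further list held other inhibitors together with Cthrc1, a secreted protein of activated fibroblasts that is not counted as an inhibitor here, and 5 of its genes were tested. Of these, 1 was higher and 2 were lower on each of day 5 and day 20, against 34.3% and 30.1% of all genes called. Cthrc1 rose by 2.73 ± 0.25 (adjusted p = 1.89e-07) on day 5 and 1.57 ± 0.23 (adjusted p = 4.58e-05) on day 20. The falls were led by Sostdc1, an inhibitor in hair follicles, at -1.58 ± 0.28 (adjusted p = 0.000208) on day 5 and by Apcdd1, a membrane inhibitor in hair follicles, at -0.97 ± 0.21 (adjusted p = 0.00176) on day 20.

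Inside the cell, 5 of 16 destruction complex and Dishevelled genes (31.2%) fell on day 5, led by Btrc (-0.71 ± 0.15), and on day 20, 2 rose, led by Tnks (0.66 ± 0.15), and 2 fell, led by Gsk3a (-0.84 ± 0.16). The called shares, 31.2% on day 5 and 25% on day 20, were below the 34.3% and 30.1% of all genes. Of all genes 17.5% were lower on day 5. Of 9 TCF factors and cofactors, 3 fell on day 5 (33.3%), led by Tle4 (-0.59 ± 0.17). On day 20 Tcf7l1 rose (0.73 ± 0.16) and Tle3 fell (-0.72 ± 0.24), a called share of 22.2%. Of 8 further target genes, 3 rose and 3 fell on each of day 5 and day 20, a called share of 75%. Ccn4, a matricellular protein, rose by 3.49 ± 0.34 (adjusted p = 4.17e-07) on day 5 and 3.36 ± 0.32 (adjusted p = 2.99e-07) on day 20, whereas the inhibitor Nkd2 changed by -0.87 ± 0.21 (adjusted p = 0.00407) on day 5 and the follicle gene Tnfrsf19 by -1.17 ± 0.21 (adjusted p = 0.000284) on day 20. The further target genes thus moved in both directions on the days on which Axin2 was lower. Of 8 planar polarity genes, 2 fell on day 5 (25%), and 4 fell and 2 rose on day 20 (75%). Celsr2 had the largest fall on both days (-0.89 and -0.98) and Prickle2 the largest rise on day 20 (0.63).

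Marker genes of several cell types also changed, and their part in the results was not tested. Over all tested genes 34.3% were called on day 5, 30.1% on day 20 and 22.1% from day 20 to day 60. Of 12 hair follicle markers, 0 were called on day 5, 7 were lower on day 20 and 10 were higher on day 60 than on day 20. Though not called, 10 of the 12 had a negative change on day 5, with a median of -0.58 against -0.07 over all genes. Their summed signal ran over 183291 to 593802 in controls, 159249 to 290082 on day 5, 32224 to 315351 on day 20 and 298803 to 615995 on day 60. Day 20 arrays B and E, at 50442 and 32224, lay far below the other 3 day 20 arrays. They were also the lowest day 20 arrays for epidermis markers, at 5536 and 3716 against 10092 to 63906, and for glandular epithelium markers, at 6358 and 4428 against 16075 to 20979.6. Array B is also the array in which Wnt4, Wnt10a, Fzd10 and Wif1 were lowest among the day 20 arrays. Without arrays B and E, an alternative added after the values were seen, 13 members were called on day 20 instead of 20. The calls of Fzd10 (adjusted p = 0.0876), Lef1 (0.085), Wnt5a (0.0612), Sfrp4 (0.0524), Sfrp5 (0.0717), Wnt11 (0.121) and Dkk3 (0.186) ended, while Dkk2, Fzd7, Axin2, Wnt2, Wnt4 and Wif1 were among those still called. From day 20 to day 60 the calls of Wnt5a, Wnt10a, Fzd4 and Fzd8 ended in that fit.

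Of 8 tested luminal and glandular epithelium markers, all 8 were lower on day 5 and on day 20 and higher on day 60 than on day 20. Their summed signal ran over 69610.4 to 97525 in controls, 14918 to 22180.1 on day 5, 4428 to 20979.6 on day 20 and 26448 to 93808 on day 60, and Cldn3 was below 300. Of 6 adipocyte markers, 5 were lower on day 5 and on day 20. Their sum ran over 138562 to 311268 in controls, 95545 to 110014 on day 5, 90703 to 122656 on day 20 and 51376 to 231889 on day 60. Of 8 fibroblast markers, 3 rose and 4 fell on day 5, and their sum ran over 166414 to 263310.2 in controls and 175212 to 208089 on day 5. On day 20, 2 fibroblast markers rose and 2 fell. Of 8 skeletal muscle markers, 4 fell on day 5, with sums of 503896 to 818726 in controls and 170912 to 510836 on day 5, and 0 were called on day 20.

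In the opposite direction, and as Dkk2 did, endothelial markers rose, 9 of 10 on day 5 and 10 of 10 on day 20. Their summed signal ran over 13506 to 20408 in controls, 54962 to 65896 on day 5, 45088 to 70846 on day 20 and 15375 to 28703 on day 60. Of 8 pericyte and smooth muscle markers, 6 rose on day 5 and all 8 on day 20, with sums of 81436 to 102089.5 in controls, 144973 to 192288 on day 5 and 289667 to 354559 on day 20. Of 7 tested macrophage markers, 5 rose on day 5, with sums of 36724 to 83547 in controls and 134459 to 186309 on day 5, and Itgam was below 300. On day 20, 2 macrophage markers rose and 1 fell. Of 8 epidermis markers, 0 were called on day 5 and 2 were lower on day 20. All 8 had a negative change on day 5, with a median of -0.94 against -0.07 over all genes. Of 5 Schwann cell markers with a probe set, 3 were lower on day 5 and 1 on day 20.

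**Figure D5:**
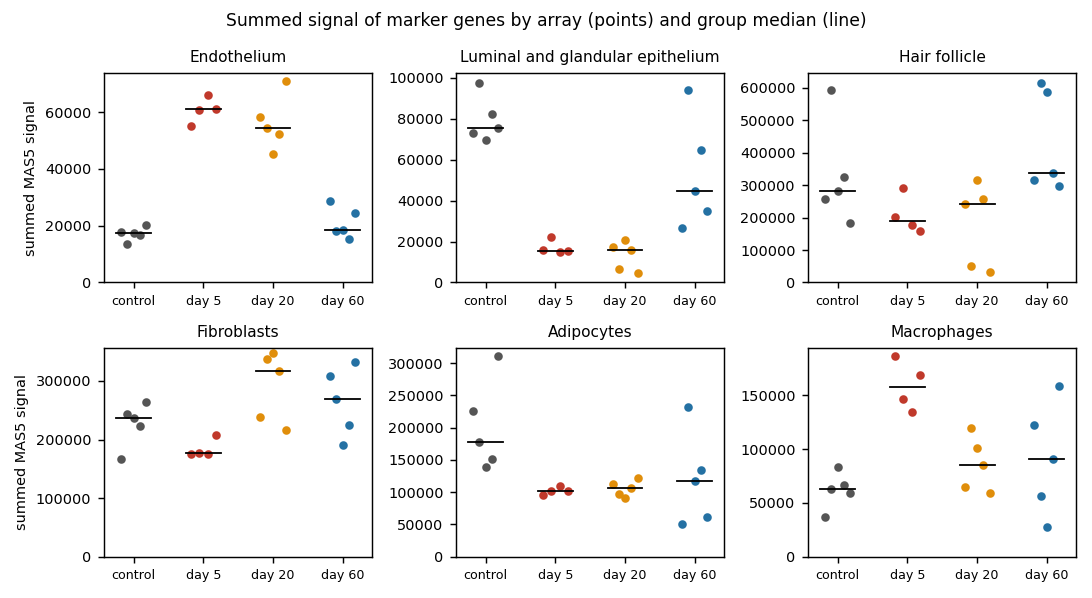
Summed MAS5 signal of 6 of the marker lists per array (linear axes from 0, a scale of its own in each panel), by group; each dot is 1 array and the line is the group median. Endothelial sums are 54962 or more on day 5 and 28703 or less in controls and on day 60, and hair follicle sums of day 20 B and E lie below those of every other array.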

How the data were processed

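The deposited values are intensity values, 1 linear MAS5 signal per probe set and array, made by the authors with GCOS 1.3 and a scaling factor of 1500, as stated per the labels and in the submitters' processing notes. They were not normalized again, and 0 columns of the table went unused. Strain, dose and RNA handling are not named in the labels.

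Of 45101 probe sets, 34958 had 1 gene symbol in the platform annotation, 932 had several, 9211 had none here and 64 were AFFX controls, and 34754 with 1 symbol matched the current gene table. Where a gene had several probe sets, the one brightest on average in the 19 arrays of known group stood for it. That gave 18193 genes, and the 13594 whose mean reached 300 entered the tests.

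Arrays were grouped by source name and named by the letter of their title. The 4 group means were fitted together to log2(signal + 100) with limma 3.58.1 (statmod 1.5.0, R 4.3.3; lmFit, eBayes with a trend), tested on both sides and adjusted by Benjamini and Hochberg over all tested genes. Genes were called at 0.05. Other probe sets of a member were fitted likewise and adjusted over all probe sets of at least 300. The fit was tested on simulated data.

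Every called member is described, and of each list of other pathway genes the largest rise and fall against control are named. Members and lists were chosen with earlier results of these data known. Alternatives covered the pseudocount, the minimum signal, normalization, the variance model, array weights, the arrays fitted, the probe sets, the letter as a block, the Actb ratio as a covariate, the array titled day 5 A and each array left out in turn. Figures were drawn with matplotlib 3.10.9. Positions of probe sets were not analysed here.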

Additional observations from a re-analysis of the deposited data

Results flagged for a closer look

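In 10 of 144 sets of arrays (1 member in 1 group) the highest or lowest array stood far from the others for a group of its size, and chance alone flags about 1 in 20 such sets. For Dkk2 these were the lowest arrays of 3 groups, day 5 D at 2275, day 20 C at 1852 and day 60 D at 344. Day 20 B was low for Fzd10 (419.8) and Wnt4 (98.1), and day 20 E was low for Fzd5 (487) and Wnt11 (441). On day 60, array B was high for Fzd3 (4129) and low for Wnt11 (660.1), and array E was high for Fzd5 (1749.6). Their part in the results was not tested beyond the fits with 1 array left out.

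Members also differed between days after the vector, each tested directly by limma at an adjusted p under 0.05 and given as a log2 change. Day 20 exceeded day 5 for Frzb (0.88), Fzd8 (0.82), Notum (0.88) and Sfrp4 (0.79). Day 60 exceeded day 20 for Axin2 (1.22), Fzd10 (0.92), Fzd10os (0.87), Fzd2 (0.64), Fzd3 (1.33), Fzd7 (0.84), Lef1 (1.47), Lrp6 (0.61), Sfrp4 (1.01), Sfrp5 (0.63), Wif1 (1.27), Wnt10a (1.24), Wnt2 (1.15), Wnt4 (1.65) and Wnt5a (1.20). Day 60 lay below day 20 for Dkk2 (-1.80), Fzd4 (-0.67) and Fzd8 (-0.58). Day 60 exceeded day 5 for Axin2 (1.06), Fzd1 (0.69), Fzd10os (0.68), Fzd2 (1.26), Fzd3 (1.28), Fzd7 (1.22), Lef1 (1.07), Lrp6 (0.50), Notum (0.73), Sfrp1 (0.81), Sfrp4 (1.80), Sfrp5 (0.79), Wif1 (0.75), Wnt2 (1.28), Wnt5a (1.04), Wnt5b (0.76) and Wnt9a (0.77), and lay below it for Dkk2 (-2.05).

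The array titled day 5 A, whose source name is the control, read 3184 for Dkk2, above every control array. It also lay below every control array for 14 of the 16 members that were lower on day 5. Its marker sums were 61073 for endothelium and 155676 for macrophages, both inside the day 5 range and above all controls. For glandular epithelium it gave 23904, below all controls and above the other day 5 arrays, and for epidermis 64634, above both groups. Which group it belongs to was not tested.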

How the results depend on the processing

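Of 79 calls of a member in a comparison, 58 held in every fit with 1 array left out and 36 in every alternative run. Calls ended in 22 cases with the array titled day 5 A as a control, but in 3 with it as day 5. They ended in 18 with the mean of all probe sets of a gene, 16 without day 20 arrays B and E (chosen after seeing the data), 9 with no minimum signal and 8 with the Actb ratio. The mean of all probe sets turned the change from day 20 to day 60 for Fzd2 (-0.027) and Sfrp5 (-0.011), as it takes in their other probe sets. Members called on day 5 numbered 17 (14 to 18 with 1 array left out, 11 with the day 5 A array as a control). On day 20 they numbered 20 (17 to 21, but 13 at a minimum of 1000, which leaves fewer genes, and 13 without B and E). On day 60 they numbered 2 (0 to 4; the 4 came without control B). They fell to 0 with a pseudocount of 1, a fit of both groups only, the replicate block, day 5 A as a control or B and E left out, and to 1 with the mean of probe sets or day 5 A as day 5. A minimum of 1000 also gave 0, but Notum (mean 758) and Wnt5b (mean 472) are not tested at that minimum. Day 20 against day 5 had 4 (0 to 5, the 0 without day 5 B, day 5 C or day 20 D). It had 2 with quantile normalization, the replicate block or B and E left out, 8 with array weights and 1 with day 5 A as a control. A minimum of 1000 also gave 2, but Fzd8 (mean 449) and Notum are not tested there. Day 60 had 18 against day 20 (15 to 18) and 18 against day 5 (14 to 20). The cause of these shifts was not tested. The letter of the title as a replicate block gave 17, 19, 0, 2, 16 and 16 called members in the 6 comparisons, in the order given here. Arrays with the same letter correlated from -0.28 to 0.35 in their deviations from group means, so the letters were not treated as pairs, and whether they mark anything shared is not known. Quantile or percentile scaling shifted the median change of all genes by less than 0.1. Signals near 300 limit what can be said of Dkk1, Wnt2b, Wnt8b and the untested members.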
